A study of Physcomitrium patens with 8 samples.

Results

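In wild-type moss, 286 genes had strongly higher transcript levels under abscisic acid, osmotic stress and drying alike. They were followed across 2 genotypes and 4 conditions in 8 libraries, and were chosen by their wild-type values: on the log2(value + 10) scale of the deposited normalized reads, each was at least 3 units (8-fold) higher than the untreated wild type under all 3 treatments. The choice was made among 19821 of the 26610 genes in the table, those averaging 20 normalized reads or more across all libraries. The wild-type rises that made the choice are therefore a description. The knockout libraries entered the choice only through that mean.

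The tissue was chloronemata, the green filaments of a young moss culture, of Physcomitrium patens strain Gransden, sampled 6 days after subculture. The genotypes were the line labelled PpanrKO (KO) and wild type (WT), both in the Gransden background. The conditions in each were 1e-05 M ABA for 1 h, 10% (w/v) mannitol for 1 h, drying over saturated NaCl until 70% of the fresh weight was gone, and untreated control. Each of the 8 groups was 1 library of RNA pooled from 3 biological replicates, so no difference has a replicate check or a p-value. The labels do not say how many KO clones were used, and they name no mock transfer for the control tissue.

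ABA (abscisic acid) is a hormone that plants make when water runs short. In land plants it binds receptors that then block PP2C phosphatases, which frees SnRK2 kinases to act on bZIP transcription factors. Mosses treated with ABA come to survive drying, and the proteins they make in that state are known to include late embryogenesis abundant proteins, which shield other proteins and membranes in dry cells. Mannitol in the medium draws water out of cells by osmosis. The series title names the disrupted gene as an ABA response regulator needed for desiccation tolerance.

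Gene IDs come without names in the files, and none of them matched the RefSeq gene table at hand (0 IDs). The genes below are therefore given by ID and position (gene models V3.0, Phytozome v10), with no function, and neither the tissue's markers nor the disrupted gene could be looked up. Libraries held between 22516957 and 38767634 reads. Intervals in brackets are exact 95% intervals and cover counting error alone, since PCR copies of a molecule are not independent. The tissue is bulk, so fewer cells with a transcript and less transcript per cell cannot be told apart.

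Together the 286 genes made up a large part of the transcriptome in treated WT and a trace in KO and in untreated tissue. They held 0.0743% of the reads with ABA in KO (0.0734 to 0.0751), 0.0828% with mannitol (0.0818 to 0.0837), 0.0984% after drying (0.0972 to 0.0996) and 0.0590% in the KO control (0.0582 to 0.0598). In WT they held 17.3% of the reads with ABA (17.27 to 17.30), 3.72% with mannitol (3.718 to 3.730), 10.5% after drying (10.50 to 10.53) and 0.132% in the control (0.131 to 0.134). All 4 KO libraries thus lay below the untreated WT library. Per kb of gene span, 32 of the 100 most abundant genes of WT with ABA were among the 286, as were 22 after drying and 7 with mannitol. In the WT control and in each of the 4 KO libraries the number was 0. The WT signal was concentrated, since 22 genes carried 50% of the group's reads with ABA. That number includes gene pairs with near-equal reads, described below, which may share reads.

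**Figure D1:**
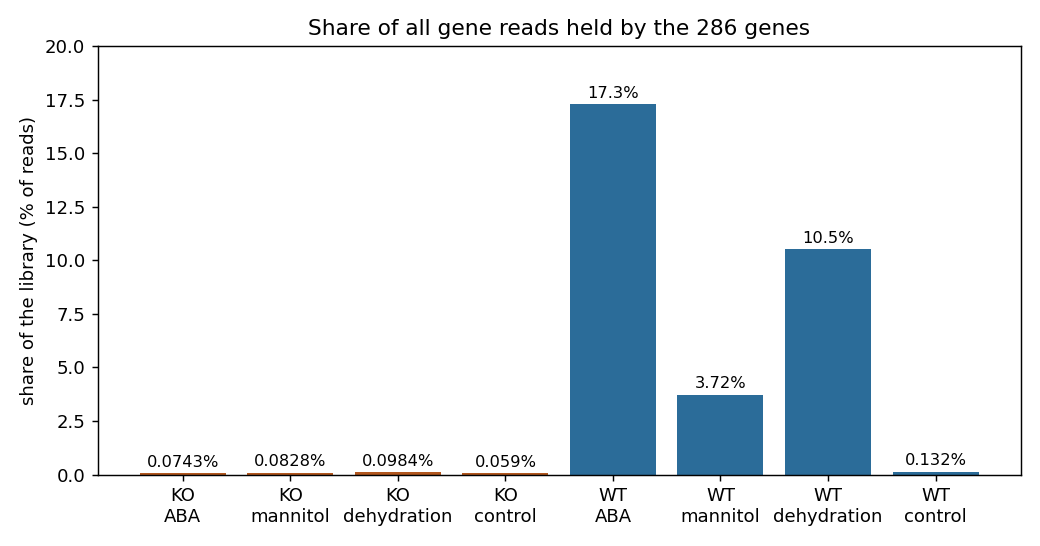
Share of all gene reads (%) held by the 286 genes in each library, with KO bars at the left and WT bars at the right. The bars reach 17.3% in WT with ABA and 10.5% after drying in WT, and stay under 0.1% in all 4 KO libraries.

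Gene by gene the picture was the same. The median level over the 286 genes was 10.9 normalized reads with ABA, 9.51 with mannitol, 15.4 after drying and 13.2 in the control in KO. In WT it was 8586 with ABA, 1435 with mannitol, 3609 after drying and 22.2 in the control. The highest of the 4 KO values was below the lowest of the 3 treated WT values for 283 of the 286 genes, where 10.3% of all genes kept showed such a gap. KO lay at least 8-fold below WT for 277 of the 286 genes with ABA (3.99% of all genes), 259 with mannitol (2.47%) and 275 after drying (3.41%). Lower by at least 2-fold were 285 genes under each treatment, against 12.7% of all genes with ABA, 10.1% with mannitol and 12.0% after drying. Since the WT values made the choice, nothing is read from these contrasts. The 3 genes without the gap, picked out after their values were seen, were Phpat.008G067100, Phpat.014G039800 and Phpat.026G049700.

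**Figure D2:**
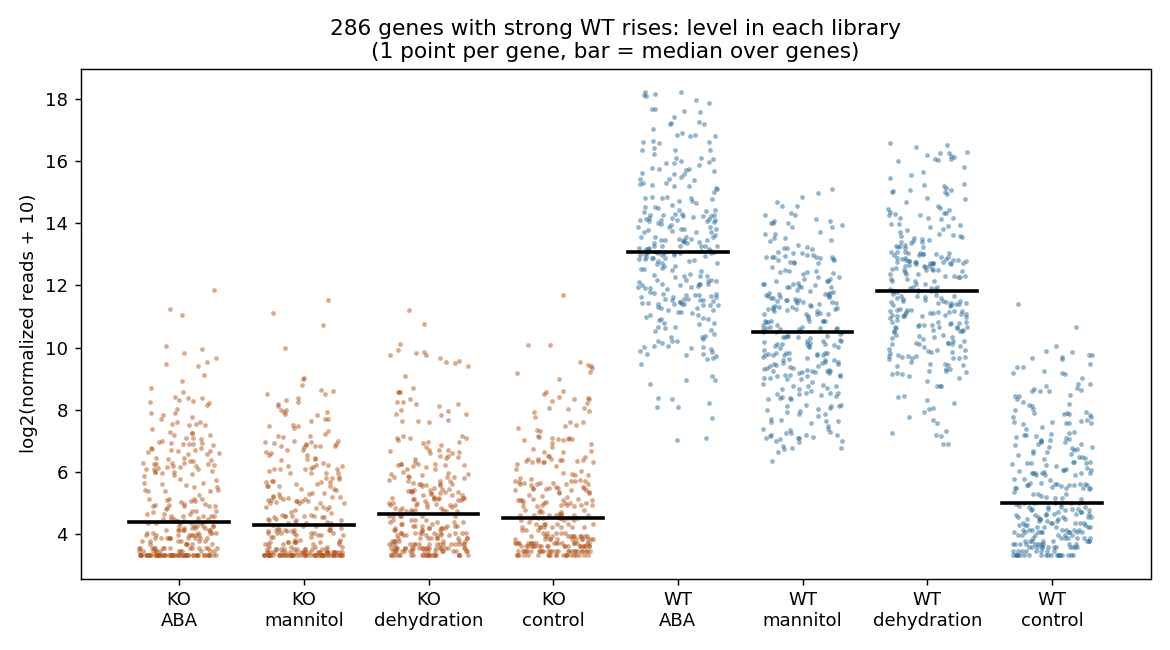
Level of each of the 286 genes in each library, as log2(normalized reads + 10), with 1 point per gene, a bar at the median, KO in brown and WT in blue. The treated WT clouds stand well above the other 5 libraries, whose medians lie between 9.51 and 22.2 normalized reads.

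The rule kept 1.44% of the genes tested. With ABA 3.62% of all genes (717) were up by at least 3 units in WT, with mannitol 1.93% (383) and after drying 2.55% (506). The 286 genes made up 74.7% of the mannitol list, 56.5% of the drying list and 39.9% of the ABA list. Of the 464 genes up by at least 3 with both ABA and drying, 178 did not reach that size with mannitol. Those 178 had a median WT difference of 4.76 with ABA, 2.09 with mannitol and 3.79 after drying, against 7.25, 4.59 and 5.99 for the 286 genes. In KO the medians of the 178 genes were 0.00, -0.11 and -0.02. All 3 WT contrasts share the same control library.

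The genes with the largest smallest-of-3 difference had 0 to 83 reads in the WT control. Phpat.008G061400 (chromosome 8, 10927107 to 10929876, minus strand) had 7.6, 3.5, 26.2 and 22.1 normalized reads with ABA, with mannitol, after drying and in the control in KO. In WT it had 154098, 16307, 44749 and 11.6 in the same order. The 4 KO values and the WT control all lay between 3.5 and 26.2, and the 3 treated WT values stood far above them with no overlap. In WT the rise was 13314-fold with ABA (7622 to 25767), 1409-fold with mannitol (806 to 2727) and 3866-fold after drying (2213 to 7483).

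Phpat.010G025800 (plus strand of chromosome 10, 4731005 to 4732203) had 0, 0, 4 and 7 reads in KO with ABA, with mannitol, after drying and in the control, and 34081, 8066, 15876 and 3 in WT. Phpat.015G003700 (plus strand of chromosome 15, 507555 to 510465) had 1, 0, 27 and 9 reads in KO, and 51502, 4458, 14929 and 0 in WT. Counted against 3 reads in place of its empty WT control, it was 28754-fold higher with ABA, 1170-fold with mannitol and 6348-fold after drying. The lower limits of the exact intervals were 23383-fold, 951-fold and 5162-fold. Both genes were thus close to absent outside treated WT tissue.

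Some genes in this top set answered the 3 treatments more evenly. Phpat.009G025500 (chromosome 9, 3378066 to 3380365, minus strand) had 13.2, 4.9, 25.3 and 76.1 normalized reads in KO, and 43571, 29077, 28625 and 80.1 in WT. Its WT rise was 544-fold with ABA (439 to 684), 363-fold with mannitol (293 to 456) and 358-fold after drying (288 to 449). Phpat.002G070400 (chromosome 2, 11068073 to 11069472, plus strand) had 4.7, 9.2, 8.4 and 22.1 in KO, and 55991, 16985, 26355 and 37.6 in WT. In both genes every treated KO value except that of drying in Phpat.009G025500 was under 20, and all treated KO values lay below the KO control.

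Among the highest WT levels were those of a group of neighbours on chromosome 3. Phpat.003G020500 (3452459 to 3453465, plus strand) and Phpat.003G020700 (3474482 to 3475488, minus strand) had 2, 1, 55 and 32 reads each in KO with ABA, with mannitol, after drying and in the control. Phpat.003G020500 had 189279, 10240, 63188 and 11 reads in WT, and Phpat.003G020700 had 189290, 10240, 63193 and 11. Near-equal counts of this kind can arise where the same reads are counted at both copies, so the values of the pair are uncertain. Both copies are in the counts and library shares given here, and with near-equal genes taken once the 286 genes were 282, with 16.2% of the WT library with ABA. Phpat.003G020400 (3449429 to 3450825, minus strand) and Phpat.003G020800 (3477122 to 3478518, plus strand) formed a second such pair, with 127600 and 127605 reads in WT with ABA.

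These genes lay in a run of 6 adjacent members. Read along the chromosome, the first 5 gene spans were 1397, 1007, 456, 1007 and 1397 bp, on the minus, plus, minus, minus and plus strands, so equal spans faced each other on opposite strands around Phpat.003G020600 (3463847 to 3464302, minus strand). That central gene had 0, 0, 10 and 5 reads in KO, and 39339, 2407, 12764 and 2 in WT. The sixth, Phpat.003G020900 (3481124 to 3482434, plus strand), was different in level and order, with 0, 1, 0 and 0 reads in KO, and 75, 95, 343 and 0 in WT. Phpat.003G020200 (3410948 to 3411900, minus strand), a short way outside the run, had 2, 1, 53 and 30 reads in KO, and 178766, 9507, 59901 and 10 in WT.

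Other genes of very high WT level were a tandem pair further along chromosome 3 and a gene on chromosome 19. Phpat.003G115800 (20194227 to 20195536, minus strand) had 0, 0, 71 and 36 reads in KO, and 177526, 22741, 75769 and 971 in WT. Its neighbour Phpat.003G115900 (20196645 to 20197899, minus strand) had 0, 0, 71 and 32 in KO, and 172773, 21811, 72913 and 678 in WT. The reads of this pair, and those of Phpat.003G020200 and Phpat.003G020500 under treatment, were also close, so shared reads are possible there too and were not tested. Phpat.019G017200 (chromosome 19, 2938347 to 2940469, minus strand) had 89.7, 17.6, 58.0 and 41.9 normalized reads in KO, and 255585, 35220, 96963 and 2674 in WT. It was the most abundant of the 286 genes in the WT control and in WT with mannitol.

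In WT the level was usually highest with ABA. It was highest there for 255 of the 286 genes (34.5% of all genes kept), highest after drying for 16 (8.10%) and highest with mannitol for 15 (57.3%). The full order ABA, drying, mannitol held for 220 genes (76.9%, against 17.3%). Set directly against each other, the ABA level lay a median of 1.21 log2 units above the drying level (all genes 0.42) and 2.53 above the mannitol level (all genes -0.23). The authors' factor per read was 1.67 times as large in WT with ABA as in the WT control, and these numbers move with the scaling between libraries. The rule applied to values under median-of-ratios scaling kept 254 genes, of which 200 were highest with ABA (78.7%, against 30.8% of all genes), 47 after drying (18.5%, against 30.8%) and 7 with mannitol (2.76%, against 38.3%). Under scaling to total reads it kept 267, of which 174 were highest with ABA (65.2%, against 8.08%), 56 after drying (21.0%, against 19.4%) and 37 with mannitol (13.9%, against 72.5%). ABA was the most frequent top condition under both.

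The exceptions had clear profiles. Phpat.014G044400 (chromosome 14, 7474932 to 7476872, minus strand) had 68.0, 24.7, 38.4 and 13.2 normalized reads in KO, and 782, 2682, 989 and 18.3 in WT, so mannitol held 60.2% of its treated WT sum. Phpat.014G099400 (chromosome 14, 16207525 to 16209355, minus strand) was of the same kind, with 204, 428, 142 and 5.8 in WT and at most 12.2 in any KO library. Drying held 73.6% of the treated WT sum of both Phpat.003G088200 and Phpat.003G088300, neighbours on chromosome 3 (15333681 to 15334447 and 15353414 to 15354333, both minus strand). Phpat.003G088300 had 3684, 759, 14783 and 6 reads in WT, and Phpat.003G088200 had 2553, 525, 10230 and 6. Both genes had at most 1 read in any KO library, with equal reads in each. Shared reads are possible for this pair and were not tested.

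The genes most biased to ABA were Phpat.005G006700 (chromosome 5, 1301473 to 1303408, minus strand) and Phpat.010G068100 (chromosome 10, 11906030 to 11906939, plus strand). Phpat.005G006700 had 0, 1, 18 and 4 reads in KO, and 24573, 179, 1519 and 1 in WT, with 95.2% of its treated WT sum under ABA. Phpat.010G068100 had 6, 9, 5 and 0 reads in KO, and 6544, 118, 513 and 0 in WT. Both still passed the rule with mannitol, by differences of 3.73 and 3.32.

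**Figure D3:**
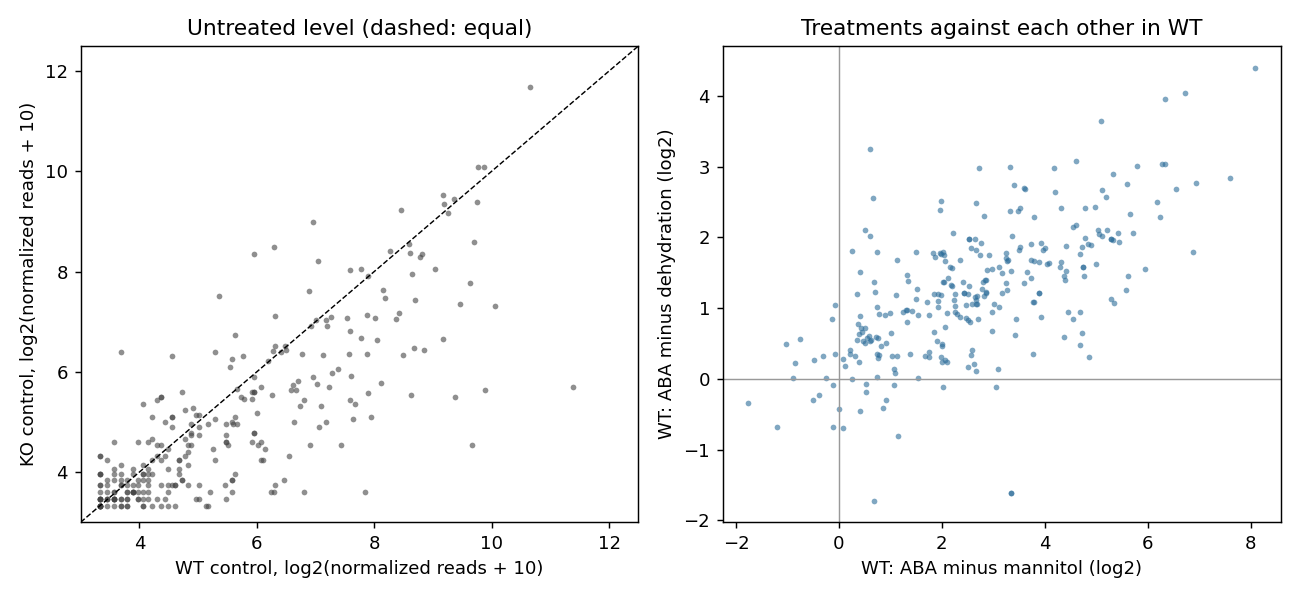
Left, KO control level against WT control level of each of the 286 genes, both as log2(normalized reads + 10), with a dashed line of equal values. Right, WT with ABA minus WT with mannitol (x) against WT with ABA minus WT after drying (y), in log2 units, where most points lie at positive values on both axes, with medians of 2.53 and 1.21.

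In KO the median of the same genes scarcely moved on the log2(value + 10) scale, which understates changes of low genes. The summed share of reads of these genes was higher under treatment, with 0.0590% in the KO control, 0.0743% with ABA, 0.0828% with mannitol and 0.0984% after drying. Their median log2 difference was 0.00 with ABA, against 0.23 for all genes kept, -0.15 with mannitol, against 0.13, and 0.04 after drying, against -0.25. At least 2-fold higher in KO were 30 of the 286 genes with ABA (10.5%, against 8.29% of all genes), 24 with mannitol (8.39%, against 9.10%) and 18 after drying (6.29%, against 1.97%). At least 2-fold lower were 29 with ABA (10.1%, against 4.97%), 38 with mannitol (13.3%, against 9.56%) and 15 after drying (5.24%, against 10.8%). Where these shares lay against the background depended on the pseudocount. With 1 in place of 10 the rule kept 355 genes, of which 79 were higher with ABA (22.3%, against 10.3% of all genes), 62 with mannitol (17.5%, against 10.8%) and 58 after drying (16.3%, against 2.93%). Lower with that pseudocount were 96 with ABA (27%, against 6.05%), 118 with mannitol (33.2%, against 10.8%) and 66 after drying (18.6%, against 13.2%). With 50 it kept 199 genes, of which 8 were higher with ABA (4.02%, against 4.79%), 7 with mannitol (3.52%, against 5.03%) and 5 after drying (2.51%, against 0.964%). Lower with 50 were 2 with ABA (1.01%, against 3.41%), 9 with mannitol (4.52%, against 7.18%) and 5 after drying (2.51%, against 6.40%), all below the background. The share of higher genes after drying was above the background with all 3 pseudocounts.

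The balance of higher and lower genes in KO depended on scaling. Of the 267 genes the rule kept under scaling to total reads, 35 were higher with mannitol (13.1%, against 27.5% of all genes) and 20 lower (7.49%, against 5.24%). After drying 37 of them were higher (13.9%, against 6.92%) and 6 lower (2.25%, against 4.77%). Of the 254 kept under median-of-ratios scaling, 20 were higher after drying (7.87%, against 3.64%) and 10 lower (3.94%, against 6.75%). Over all genes kept, total-read scaling put the median KO difference at 0.63 with mannitol and 0.22 after drying. A KO rise that reached the rule's threshold was rare under the deposited scaling. A difference of 3 or more was seen in 2 of the 286 genes with ABA (0.699%, against 0.212% of all genes) and in 2 with mannitol (0.699%, against 0.388%). After drying it was seen in 0 (0.0807% of all genes).

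Many of these transcripts were too scarce in KO for a change to be measured well. The 4 KO libraries averaged 20 normalized reads or more for 130 of the 286. Among those 130 the median KO difference was 0.28 with ABA, -0.14 with mannitol and 0.07 after drying, against 0.24, 0.13 and -0.25 for the 19199 genes with that KO mean. At least 2-fold higher were 26 with ABA (20%, against 8.37%), 20 with mannitol (15.4%, against 9.20%) and 15 after drying (11.5%, against 1.97%). At least 2-fold lower were 18 with ABA (13.8%, against 4.80%), 29 with mannitol (22.3%, against 9.55%) and 14 after drying (10.8%, against 10.8%). A gene that was high in 1 KO library passed this mean more readily, so nothing is read from these shares. At most 10 reads in every KO library were found for 88 of the 286 genes (1.10% of all genes kept). Picked after their values were seen, Phpat.008G071900 and Phpat.024G034200 had 0 reads in all 4 KO libraries (2 of the 286 genes, against 0.0858% of all genes kept), and Phpat.008G071900 had 2594, 3638, 835 and 9 in WT. Genes so low in KO passed the mean filter through WT values, which the rule made high in members, so nothing is read from these 2 shares either.

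**Figure D4:**
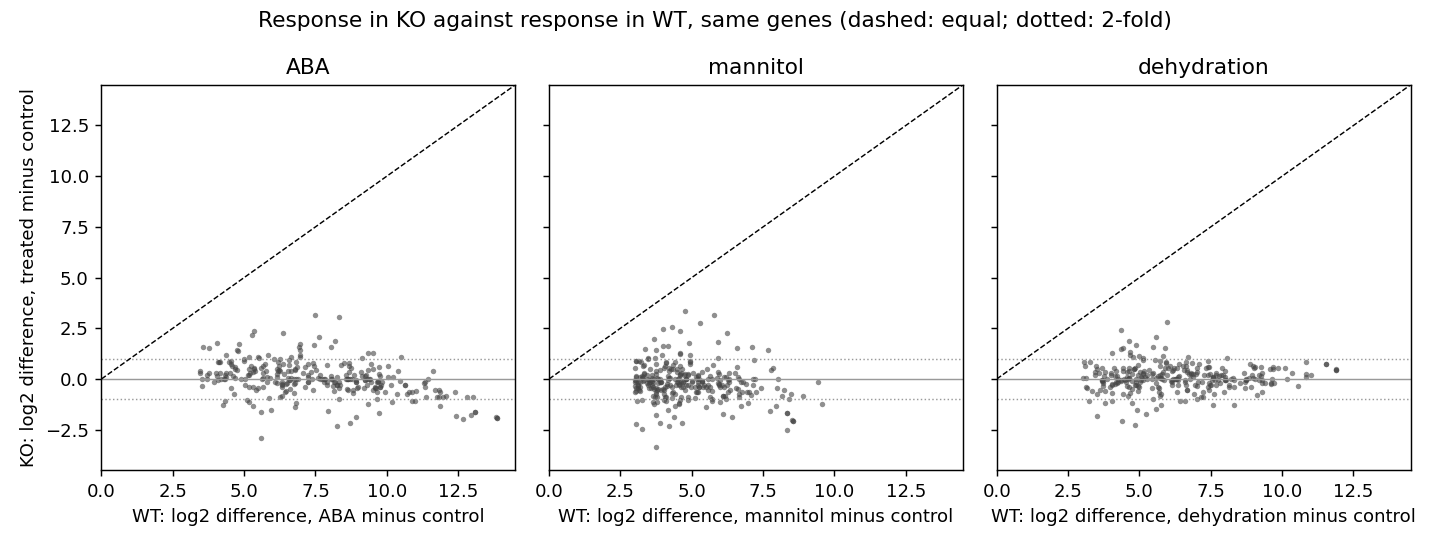
Log2 difference from the same genotype's control in KO (y) against WT (x) for each of the 286 genes with ABA, mannitol and dehydration, with a dashed line of equal responses and dotted lines at 2-fold. KO points lie between -3.35 and 3.37, mostly within 2-fold of 0, and the genes at the right edge of the ABA panel, such as Phpat.003G020500 at -1.93, lie below 0.

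Single genes were higher in KO under a treatment, and the 3 with the largest KO difference under each are given here, chosen for those values. With ABA the largest KO differences were in Phpat.023G071900, Phpat.010G083200 and Phpat.005G072500. Phpat.010G083200 (chromosome 10, 14870752 to 14874062, plus strand) had 328, 131, 26.2 and 30.9 normalized reads in KO, and 5323, 494, 791 and 6.8 in WT. Its KO level was 10.6-fold up with ABA (7.22 to 16.2) and did not rise after drying, while WT was 788-fold up with ABA (382 to 1962).

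Phpat.023G071900 (plus strand of chromosome 23, 13241832 to 13244936) had 104, 47, 0 and 2 reads in KO, and 1624, 1178, 2113 and 5 in WT. It was thus up with ABA and mannitol in KO and without a read after drying, where WT had 2600 normalized reads. Phpat.005G072500 (chromosome 5, 13944790 to 13951419, plus strand) had 278, 88.8, 194 and 45.2 normalized reads in KO, and 11241, 8384, 6800 and 266 in WT. In KO all 3 treated values stood above the control, 6.14-fold with ABA (4.42 to 8.74) against 42.2-fold in WT (37.4 to 47.8).

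With mannitol the largest KO rises were in 2 adjacent genes on chromosome 16 and in a gene on chromosome 23. Phpat.016G062500 (9835343 to 9835692, minus strand) had 35.9, 310, 11.2 and 21.0 normalized reads in KO, and 1237, 1296, 593 and 38.6 in WT. Its mannitol rise was 14.8-fold in KO (9.36 to 24.8) and 33.6-fold in WT (24.6 to 47.2). The neighbouring Phpat.016G062600 (9835776 to 9836448, minus strand) had 8, 93, 3 and 1 reads in KO, and 196, 708, 171 and 4 in WT. Phpat.023G070900 (plus strand of chromosome 23, 12890951 to 12895016) had 62, 167, 5 and 4 reads in KO, and 855, 1195, 111 and 7 in WT. In KO these 3 genes were highest with mannitol, and after drying they had 12, 3 and 5 reads, against 19, 1 and 4 in the KO control.

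After drying the largest KO rises were in Phpat.001G161300, Phpat.008G067100 and Phpat.023G046500. Phpat.001G161300 (chromosome 1, 28092657 to 28096622, plus strand) had 184, 84.5, 951 and 128 normalized reads in KO, and 2859, 1279, 4994 and 69.4 in WT. Its drying rise was 7.43-fold in KO (6.13 to 9.09) and 71.9-fold in WT (57.0 to 92.1). Phpat.008G067100 (chromosome 8, 11628395 to 11632731, minus strand) had 309, 172, 1721 and 314 in KO, and 1113, 770, 1264 and 52.1 in WT. It was the sole member whose level after drying was higher in KO than in WT, by 1.36-fold (1.26 to 1.47). Phpat.023G046500 (chromosome 23, 9147691 to 9150793, plus strand) had 700, 354, 909 and 208 in KO, and 97586, 24109, 37789 and 783 in WT.

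KO levels 2-fold or more above the KO control under all 3 treatments were seen for 2 of the 286 genes (0.699%, against 0.792% of all genes), a share close to the background. They were Phpat.007G085800, with 27, 39, 30 and 3 reads in KO, and Phpat.020G034600, with 53, 78, 42 and 13. In WT, Phpat.007G085800 had 726, 586, 748 and 35 reads and Phpat.020G034600 had 23867, 1047, 13060 and 52. Both were named after their values were seen. Under at least 1 treatment 53 of the 286 genes were 2-fold higher in KO (18.5%, against 14.0% of all genes kept).

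At the other end, 7 of the 286 genes lay 2-fold or more below the KO control under all 3 treatments (2.45%, against 2.50% of all genes). That share was close to the background, so the genes below are given as single cases. Phpat.001G052000 (chromosome 1, 9484614 to 9488877, minus strand) had 37.8, 25.4, 114 and 352 normalized reads in KO, and 3762, 1034, 2370 and 68.5 in WT. In KO it was 9.31-fold lower with ABA than in the control (6.69 to 13.3) and 13.9-fold lower with mannitol (9.81 to 20.2), whereas in WT it was 54.9-fold higher with ABA (43.4 to 70.6). The untreated KO level was 5.14-fold that of untreated WT (3.96 to 6.74).

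Phpat.009G072700 (chromosome 9, 12690421 to 12692779, minus strand) had 24.6, 19.7, 14.0 and 90.4 normalized reads in KO, and 35555, 7697, 11950 and 564 in WT. Phpat.012G071800 (chromosome 12, 13486921 to 13488819, plus strand) had 52.9, 45.8, 18.7 and 130 in KO, and 8483, 4910, 6738 and 224 in WT. In both, all 3 treated KO values lay below the KO control and all 3 treated WT values above the WT control. Phpat.009G025500, described above, was another such gene, and the other 3, chosen after their values were seen, were Phpat.002G074600, Phpat.003G150500 and Phpat.006G001300.

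**Figure D5:**
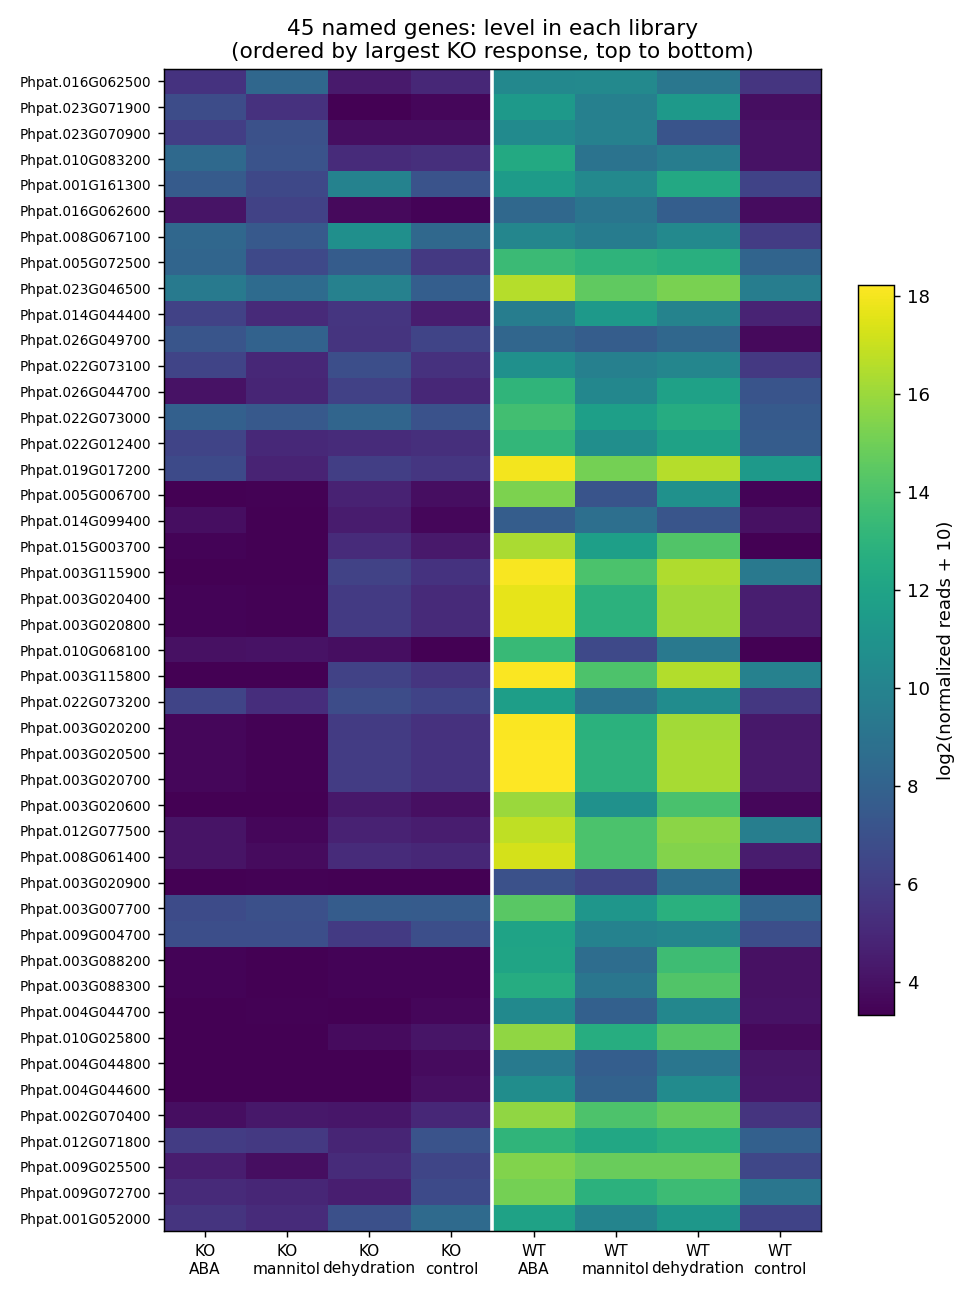
Level of the 45 named members (rows) in each library (columns, KO left of the white line and WT right of it), as log2(normalized reads + 10), ordered from the largest KO response at the top. Treated WT columns are bright throughout, and in the KO columns single treatments stand out for the genes in the top rows, such as mannitol for Phpat.016G062500.

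The genotypes also differed for these genes before any treatment. In the control condition 73 of the 286 genes lay 2-fold or more below WT in KO (25.5%, against 3.22% of all genes), and 15 were at least 2-fold higher (5.24%, against 9.14%). The median difference was -0.30, against 0.32 for all genes. This contrast shares the WT control with the rule, which selects genes that are low there. Of the 254 genes kept under median-of-ratios scaling, 82 were lower (32.3%, against 5.51%) and 7 higher (2.76%, against 4.05%), and the median over all genes was -0.025. With a pseudocount of 1, 129 of 355 genes were lower (36.3%, against 4.32%) and 55 higher (15.5%, against 10.8%). With 50, 32 of 199 were lower (16.1%, against 1.65%) and 4 higher (2.01%, against 6.23%). Whether the share of higher genes lay above or below the background thus depended on the pseudocount.

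The share of genes called lower in untreated KO was larger in the classes of higher WT control level. Of the 74 genes with at least 100 normalized reads in the WT control, 40 (54.1%) were at least 2-fold lower in the KO control, against 2.54% of the 15289 kept genes in that class. Of the 76 genes with 20 to under 100, 29 (38.2%) were lower, against 6.41% of 3606. Of the 136 genes under 20, where the scale leaves little room, 4 (2.94%) were lower, against 1.94% of 926. The classes were set after the values were seen.

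The largest of these differences were in genes that reached very high WT levels under treatment. Phpat.019G017200 was 63.8-fold lower in the KO control than in the WT control (46.4 to 90.4). Phpat.012G077500 (chromosome 12, 14787189 to 14788506, plus strand) had 7.6, 2.1, 16.8 and 13.2 normalized reads in KO, and 115277, 16257, 51366 and 804 in WT, and its control level was 60.8-fold lower in KO (34.6 to 118). Phpat.003G115800 was 23.6-fold lower in the KO control (16.9 to 33.9).

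In the opposite direction, Phpat.026G049700 (chromosome 26, 8683786 to 8687794, plus strand) had 144, 247, 36.5 and 73.9 normalized reads in KO, and 291, 198, 306 and 2.9 in WT. Its untreated level was 25.5-fold higher in KO (8.37 to 127, from 67 reads against 3). It was the sole member whose KO level came within 2-fold of WT with ABA on the log2(value + 10) scale, although without the added 10 it was 2.03-fold lower (1.62 to 2.53). It was also the sole one with mannitol, where KO was higher than WT by 0.31 log2 units. Phpat.008G067100 and Phpat.001G052000 were the others with the largest KO excess in the control.

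The lowest KO levels were not spread evenly over the KO libraries. With 0 reads there were 59 of the 286 genes in KO with ABA (0.792% of all genes kept), 56 with mannitol (0.636%), 23 after drying (0.525%) and 21 in the KO control (0.368%). The KO libraries with ABA and mannitol were deeper than those of drying and control, with 38767634 and 35622143 reads against 27245734 and 32889911. At most 3 reads in KO with both ABA and mannitol and at least 10 after drying were found for 22 of the 286 genes, against 0.172% of all genes kept (34 genes). These 22 genes had 10 to 71 reads in KO after drying and 2 to 36 in the KO control. In WT with ABA they had 5012 to 189290 reads, and they included Phpat.003G020200, Phpat.003G115800, Phpat.003G115900 and the first 5 genes of the chromosome 3 run. With near-equal genes taken once the 22 were 20. The reverse pattern, at most 3 reads in KO after drying and in the KO control and at least 10 with ABA, was found for 4 of the 286 genes, against 0.101% of all genes kept. Both criteria were set after the values were seen, and what sets these low counts was not tested. Genes this low in KO passed the mean filter mainly through their WT values, which the rule made high in members. Nothing is therefore read from the distance between these shares and those of all genes kept.

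The genes shared features of position and length that the rule did not use. Members lay on all 27 chromosomes, from 3 on chromosome 27 to 23 on chromosome 3, and 0 lay on scaffolds, which held 68 of the genes kept. By share, chromosome 10 had the most, 21 of 739 genes kept (2.84%), and chromosome 12 the fewest, 4 of 689 (0.581%). A member had another member as its next gene model in 52 of 286 cases (18.2%), against 386 of the 19535 other genes kept (1.98%), or 2.21% of all genes kept. Within the next 3 gene models on either side, 71 of the 286 (24.8%) had another member, against 6.08%. The 29 adjacent pairs formed 20 runs of 2, 2 runs of 3 and the run of 6 on chromosome 3. With each group of near-equal genes counted once, 45 members had such a neighbour.

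Of the 29 adjacent pairs 17 lay on the same strand, 8 were head to head and 4 tail to tail, where the 15573 adjacent pairs of all genes kept had shares of 53.3%, 23.0% and 23.7%. Gene spans overlapped in 3 of the pairs, and the sources used here do not say whether strand was used in counting, so reads of such pairs cannot be separated. On chromosome 4, Phpat.004G044600, Phpat.004G044700 and Phpat.004G044800 (8644030 to 8646523) had 984, 821 and 434 reads in WT with ABA and at most 5 reads in any KO library.

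On chromosome 22, Phpat.022G073000, Phpat.022G073100 and Phpat.022G073200 (14140242 to 14173927, all minus strand) formed the other run of 3, with spans of 9405, 7406 and 15215 bp. Phpat.022G073000 had 228, 168, 283 and 125 normalized reads in KO, and 13528, 3425, 5939 and 176 in WT. In KO after drying the run differed from the control by 1.12, 1.46 and 0.50 log2 units, and in WT by 5.00, 4.35 and 4.80.

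Members were shorter than other genes. The median span was 2129 bp (quartiles 1394 and 3422), against 3089 bp for all genes kept (2029 and 4517), and 32 members (11.2%, against 5.83%) were under 1 kb. Spans include introns, since the gene models give no exons. The span of 18 members (6.29%, against 8.71%) overlapped another gene model, and 28 (9.79%, against 19.1%) were over 5 kb. A gene model without an older V1.6 model was found for 49 members (17.1%, against 22.1% of all genes kept).

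At the edge of the rule the values ran on without a break. The members nearest to it had smallest WT differences of 3.00 (Phpat.022G012400), 3.01 (Phpat.009G004700) and 3.02 (Phpat.003G007700 and Phpat.026G044700). Just outside lay Phpat.013G037500, Phpat.003G003200 and Phpat.019G044500, which rounded to 3.00 from below, and Phpat.009G005700 with 2.97. The genes inside had -0.95 to 1.05 log2 units in KO with ABA and those outside -0.55 to 1.42, and the ranges overlapped.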

How the data were processed

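RNA from 3 biological replicates was pooled into each of the 8 libraries, so every comparison is between single libraries and carries no p-value. Per the submitters' processing notes the tools were FastQC, Trimmomatic, TopHat2, SAMtools and bedtools. Their roles and the normalization method are not given in the sources used here. The deposited table holds the authors' normalized read signal per gene, and all values (100%, tolerance 0.01) were whole multiples of 1 step per library, which gave back whole reads.

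Differences were taken on log2(value + 10), which understates changes of low genes. A gene was kept if its values averaged 20 or more across the 8 libraries. Intervals are exact 95% intervals on recovered reads, conditional on their sum. Floored folds, given here where the divisor had 0 reads, raised any divisor under 3 reads to 3. Alternative scalings came from DESeq2 1.42.0 (median of ratios) and edgeR 4.0.16 (TMM), with R 4.3.3, and no test of either was used. Other steps used Python 3.11.15, pandas 2.3.3, numpy 2.4.6 and scipy 1.17.1, tested on simulated data.

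The members and lists were chosen with earlier results of these data known. Named genes were the 8 with the largest smallest-of-3 WT difference, the 4 nearest on each side of the threshold, and per treatment the 3 largest and 2 smallest KO differences. They also included the 3 largest and 3 smallest KO minus WT control differences, the 4 highest summed treated WT values, the 2 highest shares per treatment, and runs of at least 3. Genes with near-equal reads took 1 place in these choices, while both copies stand in all counts and shares unless stated. Gene lists by name and promoter motifs were not used here, since no ID matched a name.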

Additional observations from a re-analysis of the deposited data

Results flagged for a closer look

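Opposite directions in the genotypes were seen for 15 of the named genes, or 13 with near-equal genes taken once: at least 2-fold lower in KO than in the KO control under a treatment that gave a WT rise of 3 or more. The values are log2 differences from the KO control, and the difference between genotypes was not tested, since each group was 1 library. Of the 15, 5 had been named for a smallest KO difference. Over all 286 genes 50 were that low in KO under at least 1 treatment (17.5%, against 16.9% of all genes kept). Phpat.001G052000 had -2.92 with ABA, -3.35 with mannitol and -1.54 after drying. Phpat.002G070400 had -1.12 with ABA. Phpat.003G020200 had -1.86 with ABA and -2.01 with mannitol. Phpat.003G020400 had -1.65 with ABA and -1.68 with mannitol. Phpat.003G020500 had -1.93 with ABA and -2.08 with mannitol. Phpat.003G020700 had -1.93 with ABA and -2.08 with mannitol. Phpat.003G020800 had -1.65 with ABA and -1.68 with mannitol. Phpat.003G115800 had -2.31 with ABA and -2.31 with mannitol. Phpat.003G115900 had -2.18 with ABA and -2.18 with mannitol. Phpat.008G061400 had -1.25 with mannitol. Phpat.009G004700 had -1.10 after drying. Phpat.009G025500 had -1.89 with ABA, -2.53 with mannitol and -1.29 after drying. Phpat.009G072700 had -1.54 with ABA, -1.76 with mannitol and -2.06 after drying. Phpat.012G071800 had -1.16 with ABA, -1.33 with mannitol and -2.29 after drying. Phpat.022G073200 had -1.03 with mannitol. The genes Phpat.003G020400 and Phpat.003G020800 had near-equal reads, as did Phpat.003G020500 and Phpat.003G020700, so their values are uncertain. Several of these values rest on few KO reads, such as 2 against 32 for Phpat.003G020500 with ABA. That gene had 189279 reads in WT with ABA, and its normalized KO level after drying was 0.000662 of that in WT. The same ratio was 0.000673 in Phpat.003G020200, 0.000691 in Phpat.003G020400, 0.000713 in Phpat.003G115800 and 0.000741 in Phpat.003G115900. Some of these genes may share reads, as said above, so their close ratios are not separate cases. Among others of the 15 it was 0.000320 in Phpat.002G070400, 0.000586 in Phpat.008G061400 and 0.000883 in Phpat.009G025500. It was 0.00117 in Phpat.009G072700, 0.00278 in Phpat.012G071800, 0.0417 in Phpat.009G004700 and 0.0482 in Phpat.001G052000. What sets these low KO counts was not tested.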

How the results depend on the processing

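No paired analysis was possible because each group was 1 library and the labels give no replicate numbers. The rule was reapplied under each alternative. TMM and total-read scaling of the KO medians, of the control comparison and of the top condition were chosen after seeing the data. Of the alternative values 84 stayed the same by the spread or 1.5-fold limit and 62 moved, and the cause was not tested. With a pseudocount of 1 (355 genes), 79, 62 and 58 genes were higher by 2-fold or more in KO with ABA, with mannitol and after drying, 24 were highest in WT with mannitol, and the shares of the WT libraries were 17.6%, 3.80%, 10.7% and 0.139% (ABA, mannitol, drying, control). With a pseudocount of 50 (199 genes) the KO counts were 8, 7 and 5. Median-of-ratios scaling (254 genes) gave 19 higher in KO with ABA, KO medians of -0.073 with ABA and 0.14 after drying, 57 higher in the KO control than in the WT control, 7 highest with mannitol and 47 after drying, and WT shares of 16.4%, 3.45%, 9.72% and 0.0984%. TMM gave 19, -0.073, 0.15, 57, 7 and 47 for the same quantities without the shares. Total-read scaling (267 genes) gave 37 higher in KO after drying, KO medians of -0.018 with mannitol and 0.29 after drying, 52 higher in the KO control, 37 highest with mannitol and 56 after drying. Under the deposited scaling 89 members were higher in the KO control than in the WT control (31.1%, against 74.3% of all genes kept). The median of that contrast over all genes kept was 0.32 there. It was -0.025 under median-of-ratios scaling, 0 under TMM and -0.18 under total-read scaling. The counts of 57 and 52 are given without an all-gene share, so nothing is read from their distance from 89. A threshold of 2.5 (360 genes) gave 23 highest with mannitol and 28 after drying, with WT shares of 18.3%, 4.18%, 11.4% and 0.196%. A threshold of 3.5 (237 genes) gave WT shares of 16.3%, 3.40%, 9.65% and 0.0957%. With near-equal genes counted once (282 genes) they were 16.2%, 3.65% and 9.95% for the treatments. At this depth 88 genes had at most 10 reads in every KO library.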
